A study of Rattus norvegicus with 16 samples.

Results

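Glutathione, thioredoxin and antioxidant genes were measured in the hearts of 2-day-old rats with inherited cardiac hypertrophy and of a control strain. The genes comprise the glutathione transferases, glutathione peroxidases, peroxiredoxins, thioredoxins and superoxide dismutases that the array names, together with Txnip, Gclc, Gclm, Gss, Gsr, Nqo1, Ephx1, Nfe2l2, Keap1 and Srxn1. They were chosen by gene symbol, from probe sets to which the platform annotation gives exactly 1 symbol, with the probe set of highest mean signal standing for a gene that has several. This gave 48 genes of the 14324 named in that way. All 48 were tested, with no filter on low signal.

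The study compared HHR, the Hypertrophic Heart Rat, an inbred strain with a polygenic enlargement of the heart, with NHR, the Normal Heart Rat, its control strain. HHR females and males and NHR females and males made 4 groups of 4 arrays, with 1 animal per array, all 2 days old and with no treatment named. The design text speaks of ventricles freed from the atria while a growth protocol names the whole heart, so it is not settled how much atrium the samples held. Neither litters nor dams are named, so litter and strain cannot be told apart. Values are log2 signals made with RMA, a method that removes background, equalises the arrays and combines the probes of a probe set. A log2 difference of 1 is a doubling, and every difference below is HHR minus NHR unless another is named.

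Heart muscle makes most of its energy by respiration, which leaks superoxide. Superoxide dismutases turn superoxide into hydrogen peroxide, and catalase, glutathione peroxidases and peroxiredoxins reduce the peroxide to water. Most glutathione peroxidases draw their electrons from glutathione, a tripeptide made by glutamate-cysteine ligase (Gclc and Gclm) and glutathione synthetase (Gss) and recycled by glutathione reductase (Gsr), whereas peroxiredoxins draw theirs mainly from thioredoxin. Glutathione transferases attach glutathione to reactive lipids and foreign compounds. Many of these genes are induced by the transcription factor NRF2, encoded by Nfe2l2, which KEAP1 marks for destruction until oxidants release it. NRF2 binds with small MAF proteins to a DNA sequence called the antioxidant response element.

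Median signal per array lay between 7.19 and 7.28, and every pair of arrays correlated at 0.990 or above. Earlier work on these data had set 3 NHR arrays apart (female 3, female 4 and male 4), so results that changed without them are given that way too. Markers of heart muscle had a mean log2 signal of 13.2 to 13.4 on every array, whereas liver markers lay at 5.65 to 5.84 and lung markers at 6.30 to 6.62. The marker counts that follow stand beside 9.64% of all probe sets higher in HHR and 11% lower. In the fit without dim probe sets 33.5% of those kept passed in either direction. Of 13 heart muscle markers 8 were lower in HHR and 0 higher, and without the 3 NHR arrays 4 were lower. Their mean signal was 13.25 to 13.32 in HHR females, against 13.33 to 13.43 in NHR females, and 13.22 to 13.25 in HHR males, against 13.31 to 13.43 in NHR males. Of 7 measured atrial markers 4 were higher and 1 lower (3 and 0 without the 3 NHR arrays), and their mean signal was 9.92 to 10.72 in HHR females, against 9.61 to 9.81 in NHR females, and 9.98 to 10.29 in HHR males, against 9.77 to 10.21 in NHR males. Of 10 fibroblast markers 3 were higher and 0 lower, of 13 red cell markers 4 and 2, of 18 leukocyte markers 1 and 1, of 7 endothelial markers 1 and 4, of 11 liver markers 1 and 0, and of 7 lung markers 0 and 0. These counts became 2 and 0 for fibroblast, 3 and 2 for red cell, 1 and 2 for leukocyte, 1 and 3 for endothelial, and 0 and 0 for liver and for lung markers when the 3 NHR arrays were left out. The part of these markers in the results below was not tested. In whole tissue, fewer cells of a type and less RNA per cell cannot be told apart.

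The antioxidant genes did not move as a block. Of the 48, 9 were higher in HHR, 3 were lower and 36 did not pass the test (limma, Benjamini-Hochberg adjusted p under 0.05 over all 27342 probe sets). That is 25% of the genes, against 20.7% of all probe sets (9.64% higher and 11% lower) and 23.1% of all named genes at their brightest probe set, a share near the background. Their median log2 difference was 0.00, against -0.03 over all probe sets. The higher genes were Gstk1, Gpx3, Ephx1, Sod3, Txn2, Gpx1, Txn1, Prdx3 and Gstm4, and the lower ones Gstt1, Gsta4 and Gstm5. After quantile normalization or cyclic loess the split was 7 higher and 5 lower. Without the 3 NHR arrays named above it was 5 higher and 1 lower, when 14.6% of all probe sets passed. In 4 of the 48 genes the HHR and NHR arrays did not overlap, Gstk1, Ephx1 and Txn1 higher and Gstt1 lower, against 1.95% of all probe sets above, 2.2% below and 4.15% in either direction.

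**Figure D1:**
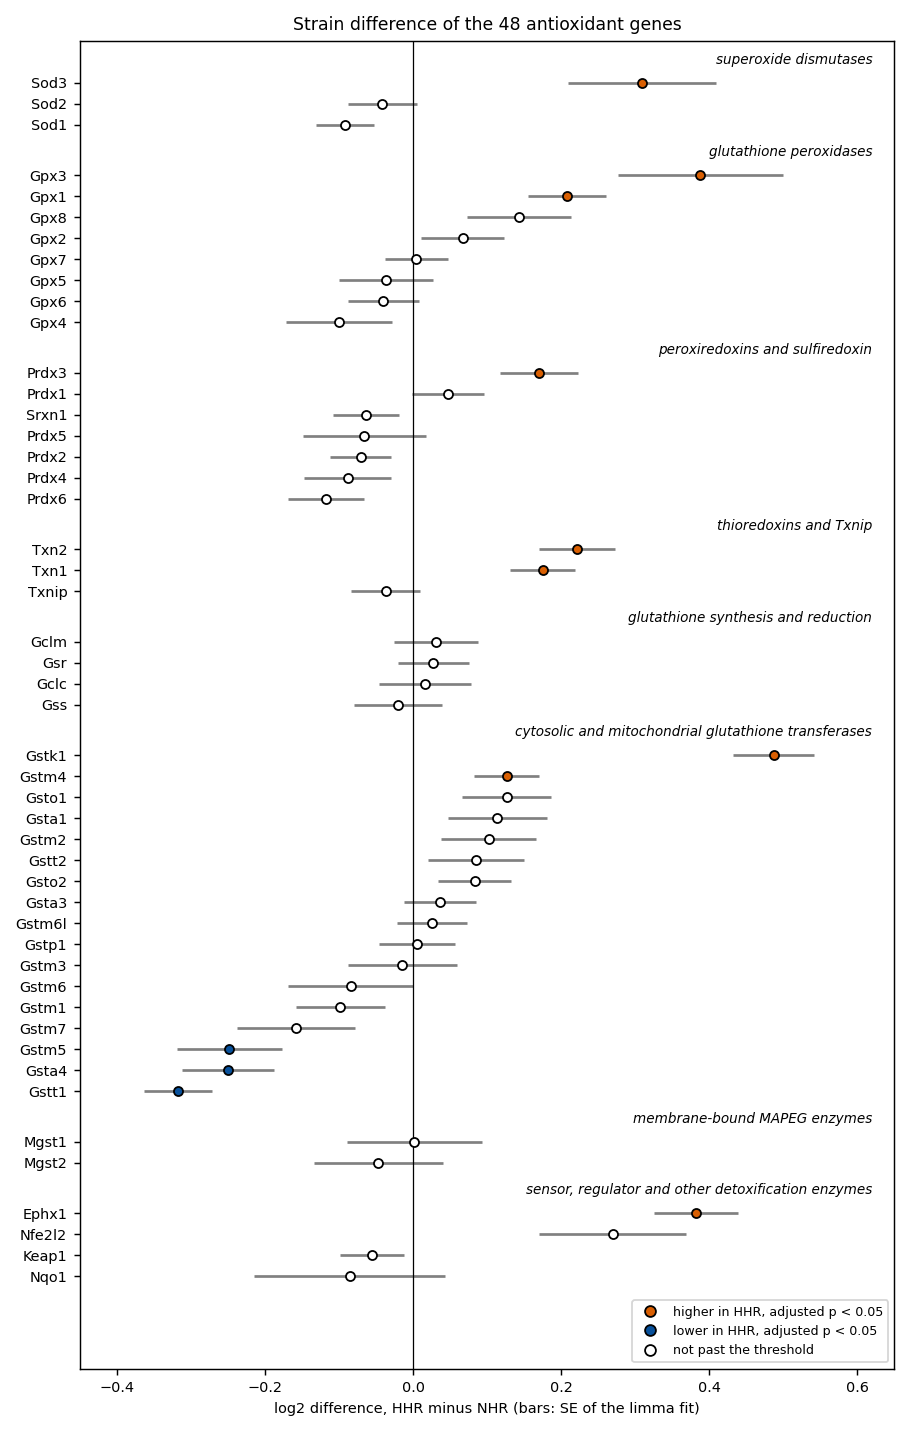
Strain difference of each of the 48 genes by role, as log2 difference of HHR minus NHR on the x axis, with bars for the standard error of the limma fit. Filled points passed an adjusted p of 0.05: 9 genes lie to the right of 0, 3 to the left, and the other 36 points are open.

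Superoxide dismutases did not change together. Sod3, the secreted enzyme that sits on the extracellular matrix, was higher in HHR, with a lowest, median and highest value of 8.92, 9.17 and 9.54 in HHR, against 8.49, 8.97 and 9.09 in NHR. The difference was 0.31 (SE 0.10, limma adjusted p = 0.0366), and 5 of 8 HHR arrays lay above every NHR array. It fell to 0.14 without the 3 NHR arrays (adjusted p = 0.311) and lost its call without any of HHR female 2 or 3, HHR male 2, 3 or 4, NHR female 3 or 4 or NHR male 4. The cytosolic copper-zinc enzyme Sod1 had values of 11.74, 11.82 and 11.86 in HHR, against 11.79, 11.92 and 11.99 in NHR (difference -0.09, SE 0.04, adjusted p = 0.106). Sod1 did pass after quantile normalization (-0.15, adjusted p = 0.0140) and after cyclic loess (-0.14, adjusted p = 0.0237). Its copper chaperone Ccs, which is needed to load the enzyme with metal, differed by -0.19 (SE 0.05, adjusted p = 0.00929), named after its values were seen; it lost this call once the 3 NHR arrays were left out (-0.14, adjusted p = 0.0823). The mitochondrial manganese enzyme Sod2 ranged from 11.17 to 11.26 in HHR, inside the NHR range of 11.14 to 11.46, with a difference of -0.04 (95% confidence interval -0.14 to 0.06, adjusted p = 0.573).

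Of the 8 glutathione peroxidases, 2 rose and 6 did not pass, where 20.7% of all probe sets passed. Gpx1, the abundant cytosolic and mitochondrial selenoenzyme, averaged 12.05 ± 0.07 in HHR and 11.84 ± 0.14 in NHR (SD, n = 8 each). Its difference of 0.21 (SE 0.05, limma adjusted p = 0.0102) was of the same size in females and males, 0.21 in each. Gpx3, the secreted peroxidase of plasma and extracellular fluid, had 10.14, 10.29, 10.23 and 10.14 in HHR females and 10.15, 10.28, 10.20 and 10.34 in HHR males. It had 10.20, 9.91, 9.26 and 9.34 in NHR females and 10.003, 10.21, 10.05 and 9.70 in NHR males. The HHR arrays thus lay close together, while NHR female 3 and NHR female 4 were the lowest of all and NHR male 4 the next. The difference was 0.39 (SE 0.11, adjusted p = 0.0203, 4 of 8 HHR arrays above every NHR array), and without those 3 arrays it was 0.15 (adjusted p = 0.119). Gpx1 lost its call in the same way (0.15, adjusted p = 0.0792).

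Among peroxidases that did not pass, Gpx8, an enzyme of the endoplasmic reticulum, differed by 0.14 (SE 0.07, limma adjusted p = 0.161). It did pass without NHR female 3 (0.20, adjusted p = 0.0287) and without all 3 NHR arrays (0.21, adjusted p = 0.0270). Gpx7, its relative in the same compartment, differed by 0.00 (95% confidence interval -0.09 to 0.09). Gpx4, which reduces lipid peroxides inside membranes and so holds back ferroptosis, differed by -0.10 (SE 0.07, adjusted p = 0.355). The gut enzyme Gpx2 (0.07), the epididymal Gpx5 (-0.04) and the olfactory Gpx6 (-0.04) had mean signals of 5.69, 4.54 and 4.17. Whether probe sets that dim held any signal was not tested.

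Of the 6 peroxiredoxins, Prdx3 alone passed, where 20.7% of all probe sets passed. Prdx3 is the mitochondrial form, and its values of 11.47, 11.55 and 11.66 (lowest, median, highest) in HHR stood against 11.27, 11.33 and 11.64 in NHR. The difference was 0.17 (SE 0.05, limma adjusted p = 0.0290), but 1 of 8 HHR arrays lay above every NHR array, because NHR male 2 reached the HHR range. Prdx3 lost its call in 10 of 26 other fits (other settings and left-out arrays, at the same threshold), with adjusted p between 0.0017 and 0.122 over all of them. They were quantile normalization and cyclic loess, leaving out the 3 NHR arrays (0.15), and leaving out HHR female 2, HHR female 3, HHR male 3, NHR female 2, NHR female 3, NHR male 1 or NHR male 3 alone. The cytosolic enzymes Prdx1 (0.05, with 0.08 on its other probe set) and Prdx2 (-0.07), the endoplasmic reticulum form Prdx4 (-0.09), the mitochondrial and peroxisomal Prdx5 (-0.07) and the phospholipid-repairing Prdx6 (-0.12) did not pass. Prdx2 passed after quantile normalization (-0.12, adjusted p = 0.0439) and Prdx6 after cyclic loess (-0.15, adjusted p = 0.0465). Srxn1, sulfiredoxin, which repairs overoxidised peroxiredoxins and is a textbook NRF2 target, differed by -0.06 (SE 0.04, adjusted p = 0.343).

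Both thioredoxins rose. Txn1, the cytosolic thioredoxin, was the steadiest of the higher genes in HHR, at 13.49, 13.46, 13.51 and 13.48 in HHR females and 13.44, 13.48, 13.46 and 13.49 in HHR males. It lay at 13.32, 13.39, 13.15 and 13.13 in NHR females and 13.37, 13.43, 13.33 and 13.27 in NHR males. Every HHR array was above every NHR array, although the closest pair nearly touched. The difference was 0.17 (SE 0.04, limma adjusted p = 0.00924), a 1.13-fold rise. It did not pass after cyclic loess (0.11, adjusted p = 0.0578) or without the 3 NHR arrays (0.11, adjusted p = 0.0810). Txn2, the mitochondrial thioredoxin that serves Prdx3, had 11.17, 11.22 and 11.36 (lowest, median, highest) in HHR, against 10.79, 11.03 and 11.20 in NHR. Its difference of 0.22 (SE 0.05, adjusted p = 0.00575, 6 of 8 HHR arrays above every NHR array) passed in all 26 other fits, where adjusted p reached at most 0.0455, but at 1.17-fold it stayed under the 1.2-fold minimum tried as another alternative. Txnip, the arrestin-like protein that binds thioredoxin and restrains glucose uptake, had 12.80 to 13.10 in HHR and 12.84 to 13.09 in NHR (difference -0.04, 95% confidence interval -0.14 to 0.06, adjusted p = 0.621).

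The reductases that recharge thioredoxin did not pass with it. Txnrd1, the cytosolic reductase, differed by -0.12 (SE 0.05, limma adjusted p = 0.0744) and Txnrd2, the mitochondrial one, by -0.11 (SE 0.04, adjusted p = 0.0693). Both were named after their values were seen. Of 20 measured genes for glutaredoxins, thioredoxin reductases, thioredoxin-like proteins and methionine sulfoxide reductases, 7 rose and 0 fell. This share was 35% of these genes, against 20.7% of all probe sets and 33.5% in the fit without dim probe sets. Their median difference was -0.05, and 0.02 without the 3 NHR arrays. Msrb1, a selenoprotein that repairs oxidised methionine, had 10.07, 10.20 and 10.47 in HHR, against 9.72, 9.85 and 10.02 in NHR (difference 0.37, SE 0.06, adjusted p = 2.8e-04, 8 of 8 arrays above). Nxn, nucleoredoxin, a thioredoxin relative known for its part in Wnt signalling, was higher by 0.32 (SE 0.05, adjusted p = 3.6e-04, 8 of 8 arrays). Txndc12, a thioredoxin-like protein of the endoplasmic reticulum, was higher by 0.52 (SE 0.10, adjusted p = 0.00146), and by 0.33 without the 3 NHR arrays (adjusted p = 0.0069). Without the 3 NHR arrays the list gave 6 higher and 1 lower (35%, against 14.6% of all probe sets in that fit).

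The genes for making and recycling glutathione gave no call. Gclc, the catalytic and rate-limiting subunit of glutamate-cysteine ligase, had 8.71, 8.86 and 9.15 (lowest, median, highest) in HHR, against 8.67, 8.91 and 9.08 in NHR. Its difference was 0.02 (95% confidence interval -0.12 to 0.15, limma adjusted p = 0.892). Gclm, the modifier subunit, had 9.47, 9.61 and 9.73 in HHR, against 9.45, 9.53 and 9.81 in NHR (difference 0.03, interval -0.09 to 0.15, adjusted p = 0.747). Gss differed by -0.02 (interval -0.15 to 0.10, adjusted p = 0.850) and Gsr by 0.03 (interval -0.07 to 0.13, adjusted p = 0.742). In each of these 4 genes the ranges of the strains overlapped almost wholly, and the intervals ran from -0.15 to 0.15 at the widest. Gss was uneven within NHR, where NHR female 3 and NHR female 4 had 8.57 and 8.55, against 8.15 and 8.25 in NHR female 1 and NHR female 2. In HHR its arrays spanned 8.27 to 8.38.

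Around that pathway, several genes of glutathione turnover and transport did pass. Of 22 measured, 2 rose and 5 fell (31.8%, against 20.7% of all probe sets), with a median difference of -0.02. Lancl1, a glutathione-binding protein, fell to 8.40, 8.71 and 8.85 (lowest, median, highest) in HHR, against 8.94, 9.06 and 9.29 in NHR (limma difference -0.43, SE 0.06, adjusted p = 1.3e-04, 8 of 8 arrays below). The exporter Abcc5, with all HHR arrays below all NHR arrays, fell by 0.33 (SE 0.05, adjusted p = 2.0e-04), and so did Oplah, which returns oxoproline to glutamate, by 0.26 (SE 0.05, adjusted p = 0.00152). Slc1a4, a carrier of neutral amino acids, rose by 0.35 (SE 0.07, adjusted p = 0.00140), and Glo1, a glyoxalase that uses glutathione to clear methylglyoxal, by 0.17 (SE 0.05, adjusted p = 0.0143). Glo1 lost its call once the 3 NHR arrays were left out (0.11, adjusted p = 0.0988). In that fit 1 gene of the list was higher and 4 were lower (22.7%, against 14.6% of all probe sets). Among 10 genes that supply NADPH, the electron source of both systems, 1 rose and 3 fell (40%, against 20.7% of all probe sets). Me1, malic enzyme, rose by 0.18. Taldo1 (-0.19), H6pd (-0.27) and Tkt (-0.15), all of the pentose phosphate route, fell. None of these 4 passed without the 3 NHR arrays. Adjusted p was then 0.264 for Me1, 0.151 for Taldo1, 0.158 for H6pd and 0.227 for Tkt. In that fit 0 of the 10 genes were higher and 0 lower, against 14.6% of all probe sets past the threshold.

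**Figure D2:**
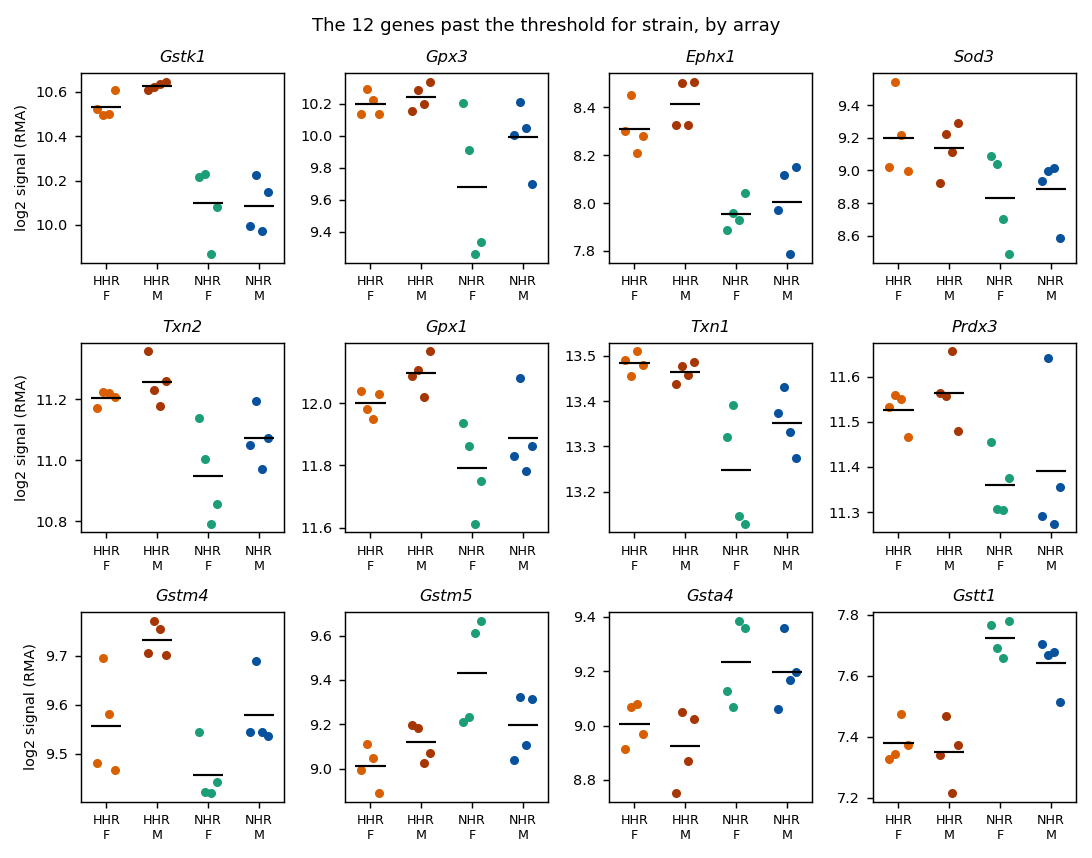
Log2 signal of the 12 genes past the threshold on each of the 16 arrays, with HHR (females, then males) left of NHR (females, then males) and a line at each group's mean. All 8 HHR arrays lie above every NHR array for Gstk1, Ephx1 and Txn1 and below every one for Gstt1, while for Gpx3 the NHR females spread from 9.26 to 10.20.

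The glutathione transferases moved in both directions. Of the 17 soluble and mitochondrial enzymes, 2 rose and 3 fell, against 9.64% of all probe sets higher and 11% lower. Gstk1, the kappa-class enzyme of mitochondria and peroxisomes, showed the largest difference of the 48 genes. It had 10.52, 10.50, 10.50 and 10.61 in HHR females and 10.61, 10.62, 10.63 and 10.65 in HHR males, against 10.22, 10.23, 9.87 and 10.08 in NHR females and 9.997, 10.23, 9.97 and 10.15 in NHR males. Every HHR array was clearly above every NHR array, and the difference was 0.49 (SE 0.05, 95% confidence interval 0.37 to 0.60, limma adjusted p = 1.6e-05), a 1.40-fold rise. It passed in females (0.43, adjusted p = 0.00217) and in males (0.54, adjusted p = 5.7e-04) taken alone, and in all 26 other fits, between 0.44 and 0.51.

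Gstt1, a theta-class enzyme that acts on small halogenated compounds, was the lowest relative to NHR. It had 7.33, 7.34, 7.48 and 7.37 in HHR females and 7.34, 7.47, 7.22 and 7.37 in HHR males, against 7.77, 7.69, 7.66 and 7.78 in NHR females and 7.70, 7.67, 7.68 and 7.51 in NHR males. The closest arrays, NHR male 4 and HHR female 3, were still apart. The difference was -0.32 (SE 0.05, limma adjusted p = 1.7e-04), with -0.34 in females and -0.29 in males, and it passed in all 26 other fits. Gstt2, another theta-class gene nearby in the annotation, differed by 0.09 (SE 0.06, adjusted p = 0.386). Gsta4, the alpha-class enzyme that conjugates hydroxynonenal, a product of lipid peroxidation, averaged 8.97 ± 0.11 in HHR and 9.22 ± 0.13 in NHR (SD, n = 8 each). Its difference of -0.25 (SE 0.06, adjusted p = 0.00877) left 6 of 8 HHR arrays below every NHR array, and its dimmer probe set differed by -0.29 (SE 0.08, adjusted p = 0.0125). Without the 3 NHR arrays the brighter probe set did not pass (-0.18, adjusted p = 0.0757).

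The 8 mu-class genes lie side by side in the RefSeq annotation of assembly GRCr8, with another gene between Gstm6 and Gstm3. They did not share a direction: 1 rose, 1 fell and 6 did not pass, where 20.7% of all probe sets passed. Gstm5 was lower by -0.25 (SE 0.07, limma adjusted p = 0.0199), with 8.89, 9.06 and 9.20 (lowest, median, highest) in HHR, against 9.04, 9.27 and 9.67 in NHR. NHR female 3 and NHR female 4 were the highest, at 9.61 and 9.67, and without the 3 NHR arrays the difference was -0.12 (adjusted p = 0.177). Array weights also ended its call (-0.17, adjusted p = 0.0597). Gstm4 was higher by 0.13 (SE 0.04, adjusted p = 0.0487), just inside the threshold, and lost its call in 14 of 26 other fits. These were quantile normalization (0.11), leaving out the 3 NHR arrays (0.11, adjusted p = 0.192) and leaving out any single array other than HHR female 1, HHR female 4, NHR female 1 or NHR male 2. Of the others, Gstm1 differed by -0.10, Gstm2 by 0.10, Gstm7 by -0.16 and the dim Gstm3, Gstm6 and Gstm6l by -0.01, -0.08 and 0.03. The sequences of these genes are much alike, so how signal divides among their probe sets is uncertain.

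The omega-class Gsto1 (0.13, limma adjusted p = 0.154) passed without the 3 NHR arrays (0.22, adjusted p = 0.0172) and with array weights (0.17, adjusted p = 0.0323). Gsto2 (0.08), the pi-class Gstp1 (0.01), and the alpha-class Gsta1 (0.11) and Gsta3 (0.04) did not pass. Neither did the membrane-bound microsomal enzymes Mgst1, which had 0.00 with a 95% confidence interval of -0.19 to 0.19, and Mgst2 (-0.05). Ephx1, the microsomal epoxide hydrolase that works beside the transferases on epoxides, rose clearly. It had 8.30, 8.45, 8.21 and 8.28 in HHR females and 8.33, 8.50, 8.33 and 8.51 in HHR males, against 7.89, 7.96, 7.93 and 8.04 in NHR females and 7.97, 8.12, 7.79 and 8.15 in NHR males. No HHR array overlapped the NHR arrays, and the difference was 0.38 (SE 0.06, adjusted p = 2.2e-04), a 1.30-fold rise that passed in all 26 other fits.

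Nfe2l2, Keap1 and Nqo1 gave no call. Nfe2l2 had 10.27, 10.35, 10.17 and 10.35 in HHR females and 10.38, 10.45, 10.47 and 10.35 in HHR males, against 10.29, 10.12, 9.69 and 9.93 in NHR females and 10.41, 10.49, 9.97 and 9.74 in NHR males. The NHR arrays reached both above and below the HHR arrays, and 0 of 8 HHR arrays were above the highest NHR array. The difference was 0.27 (SE 0.10, 95% confidence interval 0.06 to 0.48, limma adjusted p = 0.0640). It passed in 5 of 26 other fits (leaving out dim probe sets, the replicate block, or leaving out NHR female 1, NHR male 1 or NHR male 2), with adjusted p between 0.0191 and 0.435, and was 0.10 without the 3 NHR arrays. Keap1, the adaptor that hands NRF2 to the ubiquitin ligase, differed by -0.06 (interval -0.15 to 0.04, adjusted p = 0.400). Nqo1, a quinone reductase used as a readout of NRF2, had 7.11, 7.16, 7.43 and 7.20 in HHR females and 6.87, 6.96, 7.01 and 7.25 in HHR males, against 6.70, 7.08, 7.49 and 7.24 in NHR females and between 6.93 and 7.92 in NHR males. The strains overlapped throughout, NHR male 4 being the highest and NHR female 1 the lowest, and the difference was -0.09 (interval -0.36 to 0.19, adjusted p = 0.690).

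**Figure D3:**
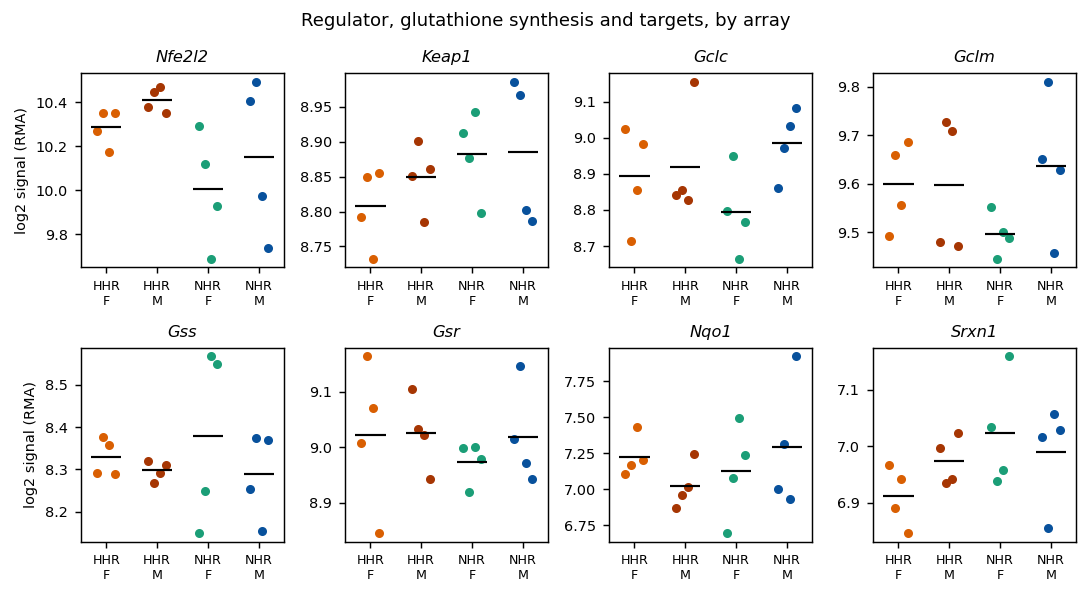
Log2 signal of Nfe2l2, Keap1, the glutathione synthesis and reduction genes Gclc, Gclm, Gss and Gsr, and the NRF2 targets Nqo1 and Srxn1 on each of the 16 arrays, with a line at each group's mean. None of the 8 passed the threshold, and the NHR arrays of Nfe2l2, Gss and Nqo1 spread more widely than the HHR arrays.

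Of 13 measured partners and regulators of NRF2, 4 fell and 0 rose (30.8%, against 20.7% of all probe sets), with a median difference of -0.02. Sqstm1, the autophagy receptor p62 that competes with NRF2 for KEAP1, had 9.67, 9.87 and 10.06 (lowest, median, highest) in HHR, against 9.99, 10.18 and 10.40 in NHR (limma difference -0.33, SE 0.07, adjusted p = 0.00240). The small MAF genes Mafg, at -0.17 (SE 0.04, adjusted p = 0.00641), and Mafk, at -0.29 (SE 0.07, adjusted p = 0.00658), were also lower. Without the 3 NHR arrays 3 were lower and 0 higher (23.1%, against 14.6% of all probe sets). Bach1 was the one that no longer passed (-0.11, adjusted p = 0.110, named after its values were seen). Of 15 other detoxification enzymes, 2 rose and 1 fell (20%, against 20.7% of all probe sets). They were grouped here as NRF2-responsive, and whether each responds to NRF2 in these hearts was not tested. Aldh1a1, an aldehyde dehydrogenase that also makes retinoic acid, was higher by 0.39 (SE 0.05, adjusted p = 5.3e-05, 8 of 8 arrays). The quinone reductase Nqo2 was higher by 0.44 (SE 0.11, adjusted p = 0.0105; 0.23 without the 3 NHR arrays, adjusted p = 0.0724). Por, the electron donor of cytochromes P450, was lower by -0.18 (SE 0.06, adjusted p = 0.0296). Without the 3 NHR arrays 1 gene of this list was higher and 2 were lower (20%, against 14.6% of all probe sets).

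Catalase, haem, iron and metal defence genes included 4 higher and 5 lower of 16, with a median difference of -0.01. The share was 56.2%, against 20.7% of all probe sets and 33.5% in the fit without dim probe sets. Fth1, the ferritin heavy chain that oxidises and stores iron, had 13.06, 13.10 and 13.14 in HHR, against 13.25, 13.33 and 13.42 in NHR (limma difference -0.24, SE 0.04, adjusted p = 3.0e-04, 8 of 8 arrays below). Its partner Ftl1, the light chain, went the other way (0.22, SE 0.05, adjusted p = 0.00456). Park7, the redox-sensitive protein DJ-1, had 12.43, 12.51 and 12.60 in HHR, against 11.95, 12.19 and 12.41 in NHR, so that every HHR array was higher (0.32, SE 0.06, adjusted p = 0.00182). Park7 differed by 0.21 without the 3 NHR arrays (adjusted p = 0.0153). Prnp, the copper-binding prion protein, fell by 0.34 (SE 0.07, adjusted p = 0.00140) and the selenium carrier Selenop by 0.29 (SE 0.07, adjusted p = 0.00623). Mt2A, a metallothionein, rose by 0.21 (SE 0.07, adjusted p = 0.0445). Selenop (-0.26, adjusted p = 0.0509) and Mt2A (0.19, adjusted p = 0.138) lost their calls when the 3 NHR arrays were left out. Cat, catalase, rose by 0.20 (SE 0.07, adjusted p = 0.0459). Cat lost its call in the same way (0.08, adjusted p = 0.314), where 2 genes of the list were higher and 2 lower. The share was then 25%, against 14.6% of all probe sets. The haem oxygenase gene Hmox1, named after its values were seen, differed by 0.07 (95% confidence interval -0.14 to 0.28, adjusted p = 0.669).

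Of 18 genes grouped as superoxide producers 2 rose and 3 fell (27.8%, against 20.7% of all probe sets), with a median difference of -0.04. The group also holds genes whose enzymes make hydrogen peroxide or nitric oxide. Ncf1, the organising subunit p47phox of the phagocyte oxidase, fell to 7.17, 7.27 and 7.31 (lowest, median, highest) in HHR, against 7.53, 7.69 and 7.95 in NHR (limma difference -0.46, SE 0.05, adjusted p = 2.7e-05, 8 of 8 arrays below). Nos2, the inducible nitric oxide synthase, fell by 0.22 (adjusted p = 0.0209), and Nox4, the oxidase of heart muscle and vessels, by 0.15 (SE 0.05, adjusted p = 0.0230). Rac1, a small GTPase that switches on the phagocyte oxidase, rose by 0.16 (SE 0.05, adjusted p = 0.0366), and Maoa, a monoamine oxidase that gives off hydrogen peroxide, by 0.20 (SE 0.07, adjusted p = 0.0441). Both lost their calls without the 3 NHR arrays (0.07 and 0.16, adjusted p = 0.301 and 0.194). In that fit 0 genes of the group were higher and 3 lower (16.7%, against 14.6% of all probe sets). Over all 7 partner lists together, 114 of 132 genes were measured, of which 18 rose and 21 fell. This was 34.2%, against 20.7% of all probe sets and 23.1% of named genes. In the fit without dim probe sets 33.5% of those kept passed. The lists were not filtered on signal, so an excess over genes of like brightness was not tested. With the 3 NHR arrays left out 10 were higher and 15 lower, or 21.9%, against 14.6% of all probe sets.

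**Figure D4:**
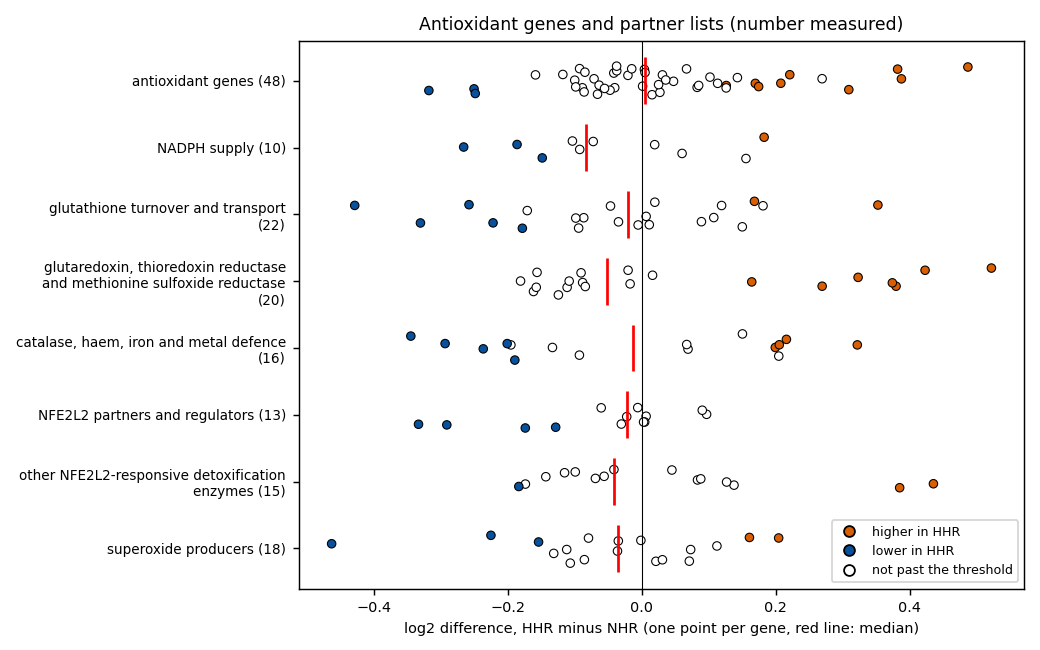
Log2 difference of HHR minus NHR for each of the 48 antioxidant genes and for each gene of the 7 partner lists, 1 point per gene, with a red line at each list's median and the number of measured genes in brackets. The medians lie between -0.08 and 0.00, and filled points, which passed the threshold, lie on both sides of 0 in each list except the glutaredoxin list, where 7 are higher, and the NFE2L2 partner list, where 4 are lower.

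Strain differences were then taken within each sex. In females 7 of the 48 genes passed, 5 higher and 2 lower, against 12% of all probe sets, and in males 3 passed, 2 higher and 1 lower, against 4.02%. Gstk1, Ephx1 and Gstt1 passed in both sexes, and Gpx3, Txn1, Txn2 and Gstm5 in females. The female and male differences had the same sign in 68.8% of the 48 genes, against 71.4% of all probe sets. The test of the difference between the sexes (the interaction, males minus females) called 0 of 48 genes with limma, and 0% of all probe sets. At an unadjusted p under 0.05 it gave 1 gene, Gstm5, against 5.08% of all probe sets. Gstm5 was lower by -0.42 in females and by -0.08 in males, an interaction of 0.34 (SE 0.14, adjusted p = 0.969). It had 9.61 and 9.67 in NHR female 3 and NHR female 4, against 9.21 and 9.23 in NHR female 1 and NHR female 2. For sex itself, males minus females over both strains, 0 of 48 genes passed, against 0.011% of probe sets, and 2 genes had an unadjusted p under 0.05, against 6.4%. These were Gstm4 (0.15, adjusted p = 0.688) and Gpx6 (0.11, adjusted p = 0.764).

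**Figure D5:**
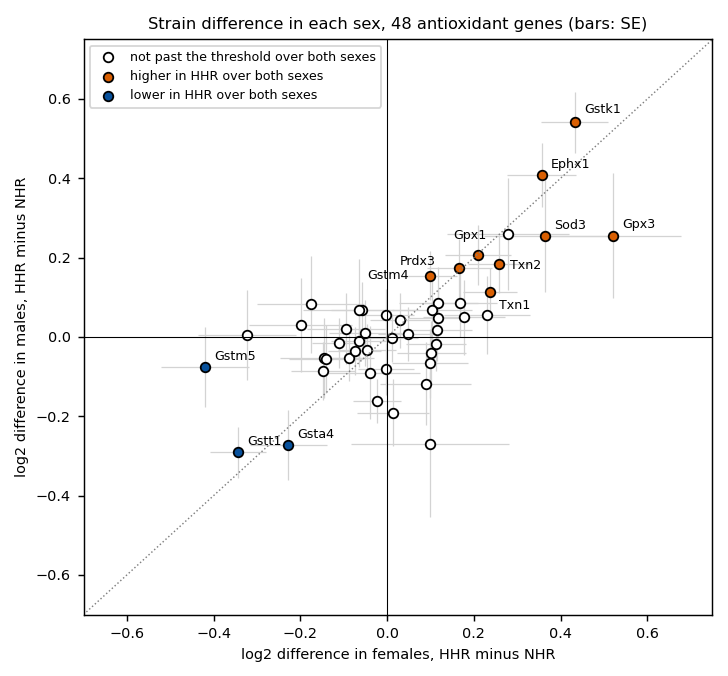
Log2 difference of HHR minus NHR in males (y axis) against that in females (x axis) for the 48 genes, with standard errors, filled where the gene passed over both sexes and with a dotted line of equality. Gstk1 and Ephx1 lie far from 0 in both sexes on the upper right and Gstt1 on the lower left, whereas Gpx3 and Gstm5 lie further from 0 in females.

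Spread among replicates was itself uneven. Within groups, the SD of NHR was larger than that of HHR in 36 of the 48 genes (75%), against 70.8% of all probe sets, and its median over the 48 was 0.13 in NHR, against 0.09 in HHR, when the sexes were pooled. For Gpx3 the SD within groups was 0.08 in HHR, against 0.36 in NHR, and for Nfe2l2 it was 0.07 in HHR, against 0.31 in NHR. A few genes ran the other way, among them Gsr, with 0.11 in HHR, against 0.07 in NHR. The 12 genes whose mean signal lay under the median of all probe sets (7.22) gave 0 calls, and the 36 brighter ones gave all 12. Calls were commoner among brighter probe sets of the whole array too. There 33.5% passed in the fit without dim probe sets, against 20.7% of all.

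Promoters were searched for the core of the antioxidant response element, TGACNNNGC, on both strands of the stretch from 250 bases before to 50 bases after each annotated start, in RefSeq sequences of assembly GRCr8. That assembly comes from another rat strain, and the sequences of HHR and NHR were not used here. Of the 48 genes 39 had an entry. The core was present in 12 of the 39 (30.8%), against 12.1% of all 33469 promoter entries. Each of the 39 genes was counted by 1 entry, whereas the 33469 were not selected by gene or kind of gene, so the 2 shares are not like for like. Of the 10 strain-changed genes with an entry 1 held it, Gstm5. A longer form, the core with an A after its last C, was present in 4 of the 39, against 3% of all, and in 0 of the 10. A match is a description of letters and not a bound site. Elements outside this stretch were not searched for, and Nqo1 and Srxn1, named above as NRF2 targets, held no core within it. The lack of a match therefore does not tell whether NRF2 acts on a gene. The sequences below are written 5′ to 3′ on the strand of the gene with the core, read in either direction, in capitals, and show that the cores of Gsta1 and Gsta3 sit in nearly the same letters, while those of Gclm and Gstp1, both without a strain call, carry the longer form too.
Gclm, chr2:213031953-213031981, plus strand, first core base at -172 from the start: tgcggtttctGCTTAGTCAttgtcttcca
Gstp1, chr1:210769748-210769776, minus strand, at -61: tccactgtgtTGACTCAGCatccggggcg
Gsta1, chr9:31216484-31216512, minus strand, at 30: aactcaggcaTGACTTTGCatttttcttc
Gsta3, chr9:31154962-31154990, plus strand, at -17: aactcaggcaTGACTTCGCattttttcct
Prdx1, chr5:135383761-135383789, plus strand, at -135: cagggaaagcGCTGAGTCAtaccccgccg
Nfe2l2, chr3:81028950-81028971, minus strand, at 38: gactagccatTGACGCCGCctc

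The same core stood in the promoter of Gstm5, the changed gene that holds it, at -113 and -53. Its 250 bases before the start (chr2:198219519-198219768, plus strand, GRCr8) are shown with both cores in capitals, and those of Gstk1 (chr4:72085364-72085613, plus strand), the gene with the largest strain difference, are shown beside them and hold no match.
Gstm5: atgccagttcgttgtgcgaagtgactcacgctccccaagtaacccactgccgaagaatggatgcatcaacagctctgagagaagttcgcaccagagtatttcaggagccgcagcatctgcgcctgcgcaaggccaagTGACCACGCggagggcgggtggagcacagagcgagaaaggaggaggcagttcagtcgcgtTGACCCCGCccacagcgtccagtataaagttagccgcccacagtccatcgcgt
Gstk1: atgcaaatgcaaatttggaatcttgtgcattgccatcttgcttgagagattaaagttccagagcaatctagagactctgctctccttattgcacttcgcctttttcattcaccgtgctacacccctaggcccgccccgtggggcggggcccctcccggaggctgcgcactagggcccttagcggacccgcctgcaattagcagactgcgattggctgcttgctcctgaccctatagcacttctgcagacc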

How the data were processed

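RNA of 16 hearts was measured on Affymetrix Rat Gene 1.0 ST arrays. The deposited values are log2 signals per probe set made by the authors with RMA, per the submitters' processing notes. Versions and filters are not given in the sources used here. Probe sets were named from the platform annotation: 15097 have 1 symbol, 323 several and 11922 none. A mean per group was fitted to all 27342 probe sets and 16 arrays with limma 3.58.1 in R 4.3.3, with moderated variances and p-values adjusted by Benjamini-Hochberg over the whole array, at a threshold of 0.05. The contrasts were strain over both sexes, strain within each sex, their interaction, and sex. Errors beside differences are moderated standard errors, and intervals are at 95%. The fit was tested on simulated data in which every group had the same spread for a given probe set. The larger spread of the NHR arrays was therefore not covered by it. The number of arrays limits the precision. The alternatives were median centring, quantile normalization, cyclic loess, array weights, a filter on dim probe sets, a replicate block, a stricter threshold, a fold minimum, and leaving out each array or the 3 NHR arrays. The genes, lists and tests were chosen with earlier results of these data known. Full statistics were given to up to 10 genes per direction with the smallest adjusted p and to 14 fixed genes, and up to 3 genes per direction of each partner list; other genes are named as members or where stated. Sequence variants under probes cannot be told apart from RNA differences.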

Additional observations from a re-analysis of the deposited data

Results flagged for a closer look

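Each gene was examined in each group of 4 arrays for an array whose gap to its nearest neighbour took up more of the group's range than Dixon's 95% critical value for 4 values. Of 192 such groups 14 did so, and chance gives about 1 in 20. In HHR females, Sod1 was low on female 2 (11.80, against 11.85 to 11.86 on the others, ratio of gap to range 0.885), Gpx4 on female 4 (8.05, ratio 0.839), Gpx5 on female 3 (4.34, ratio 0.860) and Mgst2 on female 3 (6.34, ratio 0.887). Txnip was high on HHR female 4 (13.10, ratio 0.865) and Gstp1 on HHR female 3 (9.91, ratio 0.860). In HHR males, Gclc was high on male 4 (9.15, against 8.83 to 8.85, ratio 0.917), Gstt2 was high on male 1 (9.78, ratio 0.841) and Gstm6 low on male 2 (4.68, ratio 0.841). In NHR females, Gpx2 (5.81, ratio 0.920) and Gstm6l (5.79, ratio 0.833) were high on female 4 and Gstm7 on female 1 (10.11, ratio 0.832). In NHR males, Gstm4 was high on male 2 (9.69, ratio 0.943) and Gstp1 low on male 1 (9.72, ratio 0.923).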

How the results depend on the processing

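The count of 12 genes called for strain was 6 without the 3 NHR arrays (5 higher, 1 lower, against 9 and 3), 6 at an adjusted p under 0.01 (4 higher) and 5 at a minimum of 1.2-fold (4 higher, 1 lower). Lower genes numbered 5 after quantile normalization and 5 after cyclic loess. In females the count of 7 was 3 without the 3 NHR arrays and 3 at 0.01. Leaving out 1 array gave 9 to 13 genes for strain (6 to 10 higher, 3 lower), 4 to 9 in females (4 without HHR female 3 or NHR female 4), 2 to 5 in males (5 without NHR male 2), and 0 for sex and the interaction. The groups share replicate numbers, and the main fit did not pair the arrays by them. Correlations between the deviations of same-numbered arrays ran from -0.11 to 0.37, and not all were above 0.1. Of 16 arrays 9 correlated best with an array of their own number in another group. How many would do so by chance was not tested, so whether the numbers pair the arrays is not settled. With the replicate block 13 genes were called, 8 in females and 3 in males. Nfe2l2 then passed (limma adjusted p = 0.0311), as did 22.5% of all probe sets, against 20.7% in the main fit. Signs turned only in genes without a call, among those given per-array values. Gclc (0.02) was -0.0075 with array weights, -0.0082 without the 3 NHR arrays and -0.023 to 0.046 when 1 array was left out. Gss (-0.02) was 0.0023 with median centring, 0.00047 with cyclic loess, 0.027 with array weights, 0.083 without the 3 NHR arrays and -0.058 to 0.011 when 1 array was left out. Sod2 was 0.013 without the 3 NHR arrays. Nqo1 was 0.028 with array weights, 0.14 without the 3 NHR arrays and -0.16 to 0.019 when 1 array was left out, turning without NHR male 4. The cause was not tested. Of the 12 called genes, Gstk1, Ephx1, Txn2 and Gstt1 passed in all 26 other fits, and 8 lost the call in at least 1. Gpx3, Sod3, Gstk1, Ephx1 and Gstt1 passed the 1.2-fold minimum, which Txn2 did not, and Txn1, Txn2, Gsta4, Gstk1, Gstt1 and Ephx1 passed at 0.01. The filter on dim probe sets left 40 of 48 genes.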

Other observations

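Probe sets shared by Gsta2 and Gsta5, alpha-class transferases that are abundant in liver, were left out of the 48 genes because the annotation gives them 2 symbols. The 2 probe sets had means of 4.66 in HHR, against 4.61 in NHR, and 4.81 in HHR, against 4.88 in NHR. Neither passed (limma differences 0.04 and -0.07, adjusted p = 0.590 and 0.488).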
